A study of Homo sapiens with 12 samples.

Results

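The response of control cells to low oxygen was measured in BCPAP cells, an established cell line from a human papillary thyroid carcinoma. Cells of both groups carried a scrambled small interfering RNA (siControl) that targets no gene on purpose. The comparison set 3 siControl libraries from cells kept at 1% oxygen (hypoxia) against 3 siControl libraries from cells kept at 20% oxygen (normoxia), which are 6 of the 12 libraries of the series. The other 6 libraries came from cells transfected with small interfering RNA against NOX4, an NADPH oxidase whose product is hydrogen peroxide (siNOX4), at the same oxygen levels, 3 libraries each. Members were chosen by the labels alone, and all genes of the deposited count table entered the fit. Each library was described as a transfection of its own, all of 1 cell line. The sources used here do not state how long hypoxia lasted.

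Cells read oxygen through prolyl hydroxylases (EGLN1 to EGLN3), which use oxygen to mark the alpha subunits of hypoxia-inducible factors (HIF) for destruction through VHL. When oxygen is short, HIF alpha subunits persist, pair with ARNT and bind the short DNA core ACGTG or GCGTG near their target genes. Known outputs are glycolysis, lactate export, pH control, blood vessel growth and collagen processing, while mitochondrial respiration is turned down. HIF1A itself is controlled mainly at the protein level, which RNA counts do not show.

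Summed counts per library ran from 17986418 to 21282835 in siControl hypoxia and from 16904629 to 17332339 in siControl normoxia. Mitochondrial transcripts took 0.331% to 0.358% of the counts in the hypoxia libraries and 0.912% to 0.989% in the normoxia libraries. Levels are given below as CPM, the counts of a gene relative to its library's total, after TMM adjustment between libraries. NOX4 itself was nearly silent, with 17, 8 and 13 counts in siControl hypoxia and 8, 13 and 6 counts in siControl normoxia, and it did not pass the test (log2 fold change 0.19, SE 0.45, adjusted p = 0.759). Summed markers of thyroid follicular cells were 668, 698 and 721 CPM in hypoxia, against 2013, 771 and 1891 CPM in normoxia. The defining leukocyte markers CD2 and CD3E had no count in any of the 6 libraries, and the 11 leukocyte markers together reached 4.96 to 5.50 CPM in hypoxia and 2.27 to 9.51 CPM in normoxia. Summed endothelial markers were 34.61 to 40.02 CPM in hypoxia and 44.3 to 59.4 CPM in normoxia, and summed fibroblast and mural markers 78.5 to 84.8 CPM in hypoxia and 101 to 127 CPM in normoxia. The part of these markers in the results was not tested.

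The 2 groups differed in how well their replicates matched. The biological coefficient of variation, the typical relative spread between replicates, was 5.33% among the hypoxia libraries and 31.7% among the normoxia libraries. For comparison it was 8.58% in siNOX4 hypoxia and 7.07% in siNOX4 normoxia. In 4077 of the 16196 genes tested, the 3 normoxia libraries spanned more than 2-fold (a log2 range above 1), and in 78.4% of those genes normoxia replicate 2 was the library farthest from the others. Replicate 2 lay at a median distance of 0.466 log2 units per gene from the mean of the other 2 siControl normoxia libraries, and at 0.135 from the mean of the siNOX4 normoxia libraries. Replicates 1 and 3 lay 0.476 and 0.484 from that siNOX4 mean. Replicate 2 had 13 NOX4 counts, against 1, 5 and 3 in the siNOX4 normoxia libraries. Its median distance from the siControl hypoxia mean (0.566) was within the range of replicates 1 (0.549) and 3 (0.618). On the main axis of variation of the 2000 most variable genes (77.4% of their variance), replicate 2 lay at −25.6. Replicates 1 and 3 lay at −53.7 and −59.2 and the hypoxia libraries at 44.1 to 47.7, so replicate 2 was nearer to hypoxia there. The main results are therefore also given against single normoxia libraries, or with and without replicate 2.

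**Figure D1:**
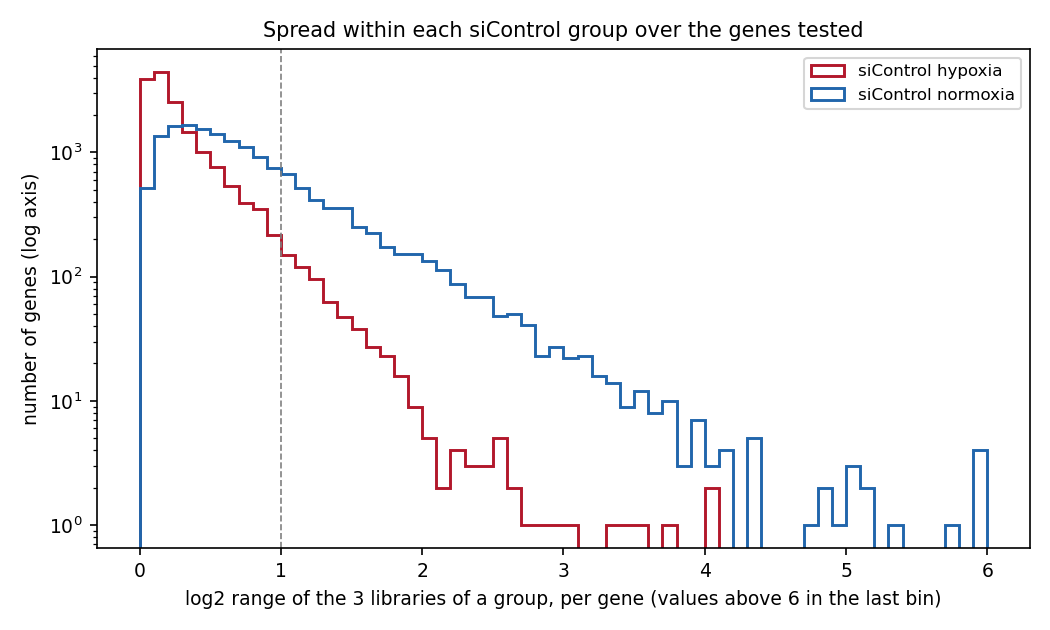
Number of genes (log axis) by the log2 range of the 3 libraries of a group, for siControl hypoxia and siControl normoxia over the 16196 genes tested. The dashed line marks a 2-fold range, which 4077 genes exceeded among the normoxia libraries.

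Low oxygen changed the RNA level of a large part of the genes. Of 16196 genes tested, 6981 (43.1%) were called at an adjusted p under 0.05, 3317 higher (20.5%) and 3664 lower (22.6%) in hypoxia. Adjusted p denotes edgeR's quasi-likelihood F test with Benjamini-Hochberg adjustment over all genes tested. Rises made up 47.5% of the calls, and 57.9% with upper-quartile scaling, which moved the median of all genes by about 0.12 on the log2 scale. Changes of at least 2-fold were seen in 3341 of the called genes (20.6% of those tested). The libraries of the groups did not overlap in 9395 genes (58.0%), 4814 with all hypoxia libraries above all normoxia libraries (29.7%) and 4581 below (28.3%). In 1320 called genes (8.15%), even the nearest hypoxia and normoxia libraries were at least 2-fold apart, 650 higher (4.01%) and 670 lower (4.14%).

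The spread in normoxia bore on the number of calls. Where the normoxia range was at most 2-fold, 46.8% of 12119 genes were called, and where it was wider, 32.2% of 4077. All 3 hypoxia libraries lay inside the normoxia range in 15.6% of the first set of genes and in 35.1% of the second. Leaving out normoxia replicate 2 raised the count to 11290 genes, and keeping it as the only normoxia library gave 10493, where its spread was taken from the hypoxia libraries. Without hypoxia replicate 1, 2 or 3 the count was 3744, 3771 and 4115. Of the 6981 calls, 3389 (48.5%) held in the same direction without each of the 6 libraries in turn, and 3369 (48.3%, 1560 higher and 1809 lower) also held with replicate 2 as the only normoxia library. These are called below the calls kept in all 7 fits. The fit with replicate 2 as the only normoxia library holds no normoxia spread, so its counts, here and below, do not measure it.

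**Figure D2:**
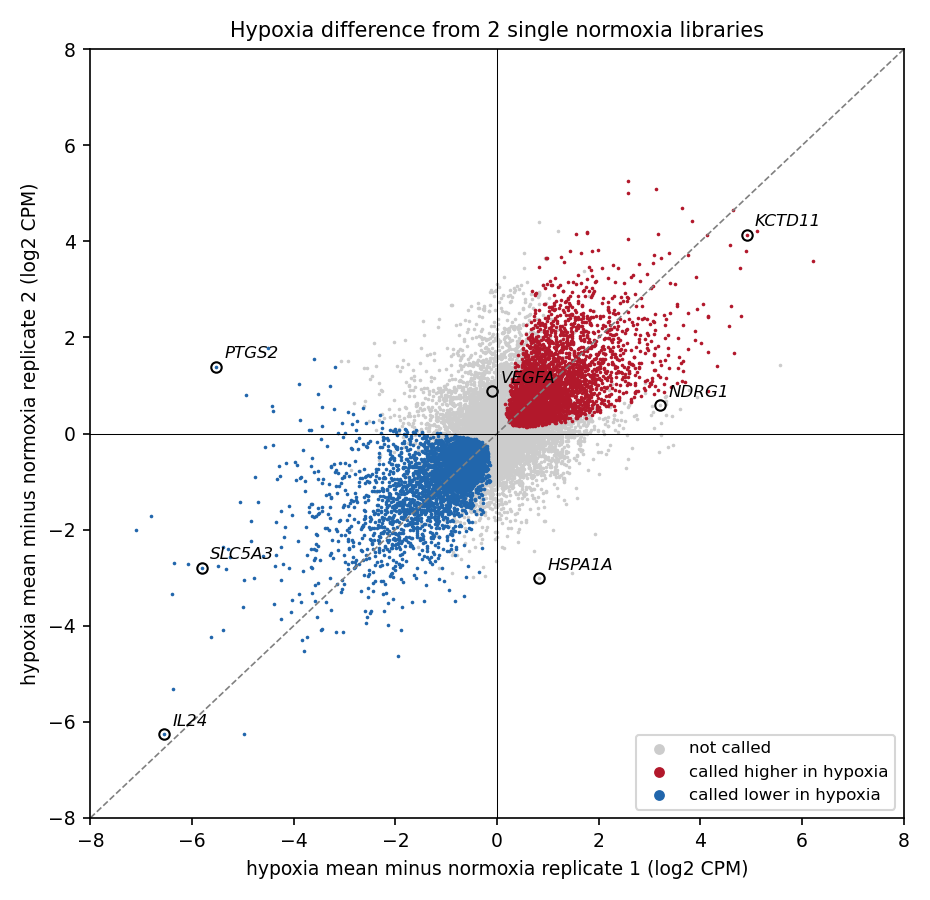
Log2 CPM difference between the siControl hypoxia mean and normoxia replicate 1 (x axis) or normoxia replicate 2 (y axis), 1 point per gene tested; both axes share the hypoxia libraries. Colours mark genes called higher, lower or not called, and points off the dashed diagonal are genes whose response depends on which normoxia library is taken: IL24 and KCTD11 lie near it, and NDRG1, SLC5A3, PTGS2 and HSPA1A far from it.

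Some genes rose strongly with tight normoxia libraries. The largest changes were taken from called protein-coding genes with a mean of 10 CPM or more on the higher side. A normoxia range of at most 2-fold and no overlap of libraries were also required. Among these genes KCTD11 showed the largest rise. KCTD11, an adaptor of a ubiquitin ligase that restrains Hedgehog signalling, had 323.7, 319.9 and 342 CPM in hypoxia, against 10.82, 18.48 and 10.91 CPM in normoxia (log2 fold change 4.62, SE 0.24, adjusted p = 0.00023). All hypoxia libraries stood more than 10-fold above the highest normoxia library. EGLN3, the prolyl hydroxylase that feeds back on HIF, had 70.77, 67.73 and 67.72 CPM in hypoxia and 6.397, 7.759 and 8.32 CPM in normoxia (log2 fold change 3.20, SE 0.14, adjusted p = 0.000172). Its 3 normoxia libraries were nearly alike, replicate 2 included.

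The other large rises covered several functions. DOK3, an adaptor protein of immune receptor signalling, rose by 3.46 on the log2 scale (SE 0.25, adjusted p = 0.000365), and ROBO4, a receptor best known from endothelial cells, rose by 2.96 (SE 0.25, adjusted p = 0.00047). TMEM45A, a membrane protein known as a hypoxia target, had 72.9, 73.44 and 74.81 CPM in hypoxia, against 11.12, 9.777 and 8.135 CPM in normoxia. G0S2, an inhibitor of the lipase PNPLA2 that spares lipid droplets, had 476.2, 494.1 and 415.4 CPM in hypoxia and 55.0, 91.27 and 54.23 CPM in normoxia (log2 fold change 2.79, SE 0.23). SESN2, a stress-induced restrainer of mTORC1, and RRM2, the inducible subunit of ribonucleotide reductase, rose by 2.70 (SE 0.26) and 2.54 (SE 0.27). ESM1, a secreted proteoglycan of angiogenic endothelium, rose by 2.51 (SE 0.19), and MARCH4, a membrane-bound ubiquitin ligase, by 2.84 (SE 0.25). Each of these calls was kept in all 7 fits, while the lack of overlap was a condition of their choice.

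IL24 showed the largest fall among genes whose normoxia libraries stayed within 2-fold. IL24, a secreted IL-10-type cytokine, had 1.918, 1.868 and 2.244 CPM in hypoxia, against 199, 161.2 and 172.9 CPM in normoxia (log2 fold change −6.46, SE 0.15, adjusted p = 1.06e-05). It had the smallest p of all genes, and its 3 normoxia libraries had a log2 range of only 0.30. The gene lies on chromosome 1 at 206897443 to 206904139 (GRCh38, forward strand), as the file gives it. PPARGC1A, the coactivator PGC-1alpha that drives mitochondrial biogenesis, had 2.238, 1.765 and 1.84 CPM in hypoxia and 33.84, 26.68 and 51.28 CPM in normoxia (log2 fold change −4.26, SE 0.29, adjusted p = 0.000352). ESRRG, a nuclear receptor that works with PGC-1alpha on oxidative metabolism genes, had 1.386, 1.194 and 1.571 CPM in hypoxia and 20.51, 34.31 and 19.6 CPM in normoxia (log2 fold change −4.15, SE 0.29, adjusted p = 0.000359). Coactivator and receptor were both lower, each with all normoxia libraries at least 10 times above the hypoxia libraries.

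The remaining large falls covered several functions. NID2, a basement membrane nidogen, had 140.8, 135.2 and 171.7 CPM in hypoxia, against 2435, 1637 and 2421 CPM in normoxia (log2 fold change −3.86, SE 0.21, adjusted p = 0.000272). SMOC1, a secreted calcium-binding matrix protein, had 20.25, 17.44 and 17.91 CPM in hypoxia and 391.6, 217.9 and 361.1 CPM in normoxia (log2 fold change −4.13, SE 0.24, adjusted p = 0.00033). Smaller but equally separated falls were those of TMPRSS15 (−3.51), OVGP1 (−3.37), FAM160A1 (−3.08), KAZN (−3.02), SEMA3E (−3.01), TNFSF10 (−2.88) and TENM2 (−2.88). SEMA3E is a repulsive guidance cue, TNFSF10 is the death ligand TRAIL, and TENM2 is a teneurin adhesion protein.

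**Figure D3:**
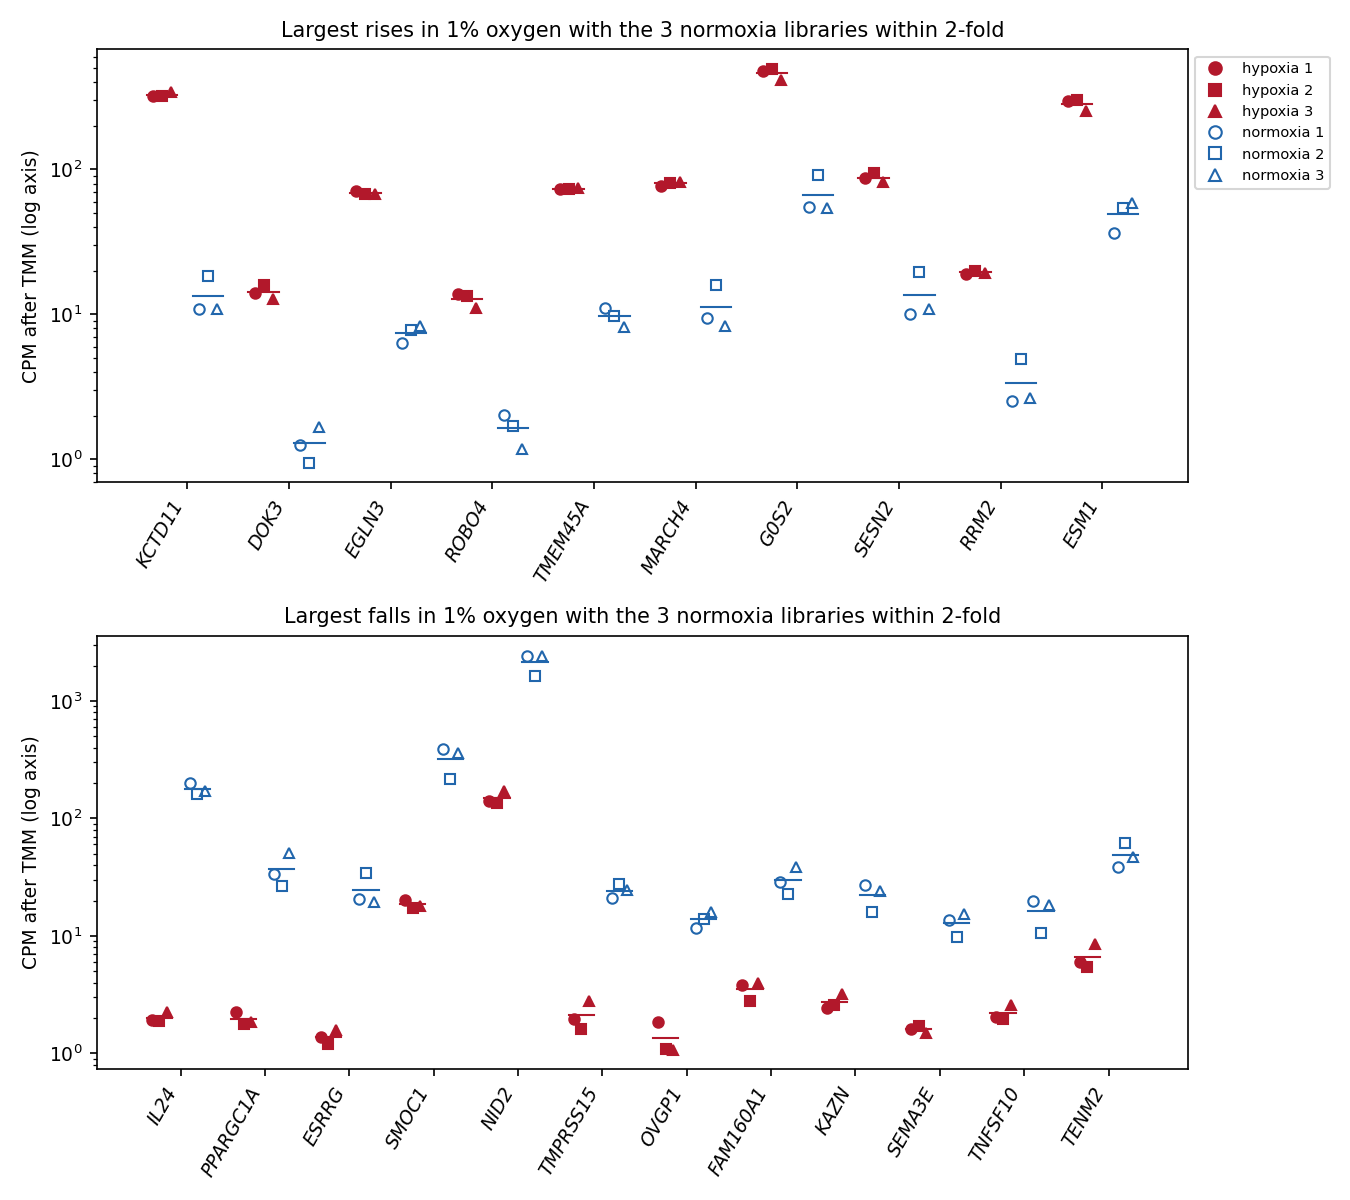
CPM after TMM (log axis) in each siControl library, hypoxia filled and left, normoxia open and right, with a bar at each mean, for 10 of the 12 largest rises and the 12 largest falls among genes whose normoxia libraries stayed within 2-fold. No hypoxia library overlaps a normoxia library in any gene shown, by the rule that chose them.

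The promoters of 3 of these genes are shown because both directions occur among genes with and without the HIF core motif. Each run is 300 bases of the RefSeq sequence on GRCh38.p14, from 250 bases before a RefSeq start of transcription to 50 after it. The runs are written along the gene's strand, with ACGTG or GCGTG on either strand in capitals. They lie at chr17:7351912-7352211 (KCTD11, forward strand), chr14:33951025-33951324 (EGLN3, reverse strand) and chr4:24472856-24473155 (PPARGC1A, reverse strand). Any other start of the same gene was not searched, and which start the cells used was not tested. The matches therefore hold for these windows only.
KCTD11: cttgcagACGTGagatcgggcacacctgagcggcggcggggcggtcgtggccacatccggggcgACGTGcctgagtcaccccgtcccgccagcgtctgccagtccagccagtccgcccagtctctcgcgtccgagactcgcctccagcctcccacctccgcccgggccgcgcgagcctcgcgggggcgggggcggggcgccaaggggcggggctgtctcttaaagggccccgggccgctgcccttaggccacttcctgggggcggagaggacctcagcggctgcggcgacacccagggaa
EGLN3: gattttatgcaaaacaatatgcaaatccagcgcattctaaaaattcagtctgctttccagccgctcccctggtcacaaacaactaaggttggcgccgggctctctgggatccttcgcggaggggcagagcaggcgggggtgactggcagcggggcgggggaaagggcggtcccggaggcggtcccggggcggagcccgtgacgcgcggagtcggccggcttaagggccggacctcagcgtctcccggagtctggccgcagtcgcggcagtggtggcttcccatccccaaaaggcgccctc
PPARGC1A: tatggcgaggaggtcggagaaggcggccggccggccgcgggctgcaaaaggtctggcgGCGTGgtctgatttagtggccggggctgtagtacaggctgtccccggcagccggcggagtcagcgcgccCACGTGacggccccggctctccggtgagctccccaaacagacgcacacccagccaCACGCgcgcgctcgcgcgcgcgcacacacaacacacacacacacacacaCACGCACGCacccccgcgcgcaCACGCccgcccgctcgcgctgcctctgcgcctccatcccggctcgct
KCTD11, which rose, held 2 matches to ACGTG. EGLN3, which also rose, held none in this window, and PPARGC1A, which fell, held 2 matches to ACGTG and 5 to GCGTG. In PPARGC1A the 2 matches to ACGTG are both strands of the same site, CACGTG. A RefSeq promoter was found for 10852 of 13246 protein-coding genes tested (81.9%). The shares below carry the same limit, as any other start of a gene was not searched. One or both motifs stood in 62.9% of these promoters, in 63.6% of the 2276 called higher, 61.1% of the 2602 called lower and 63.4% of the 5974 not called. For ACGTG alone the shares were 27.9% of those called higher, 25.7% of those called lower and 26.5% of all.

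Known HIF targets outside metabolism moved upward as a group. Of the 32 listed, 20 rose and none fell, against 20.5% and 22.6% of all genes tested, and 13 of the 20 calls were kept in all 7 fits. The same shares of all genes stand behind the counts of every list below. The median log2 fold change of the list was 0.99 (all genes, −0.0023). STC2, a secreted glycoprotein hormone, had 5703, 5743 and 5779 CPM in hypoxia, against 1319, 1818 and 1150 CPM in normoxia (log2 fold change 2.01, SE 0.19, adjusted p = 0.00067). The hypoxia libraries were nearly equal and replicate 2 was the highest in normoxia. KISS1R, the kisspeptin receptor, rose by 3.48, PPFIA4, a liprin scaffold, by 1.72, and CXCR4, the chemokine receptor of CXCL12, by 1.37. ERO1A, an oxidase of disulfide formation, rose by 1.32 and the histone demethylase KDM3A by 1.00.

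The size of this group's response depended on the normoxia library. Its median was 1.34 against replicate 1, 0.59 against replicate 2 and 1.35 against replicate 3. NDRG1, a stress-responsive protein and a standard hypoxia marker, had 2395, 2436 and 2247 CPM in hypoxia and 255.6, 1562 and 242.6 CPM in normoxia. No library overlapped, yet the test did not pass (log2 fold change 1.78, SE 0.71, adjusted p = 0.0792). Without replicate 2 the difference was 3.25 (adjusted p = 8.59e-15), and against replicate 2 alone it was 0.59. CA9, the extracellular carbonic anhydrase, had 69.28, 69.55 and 65.16 CPM in hypoxia and 8.908, 36.33 and 7.642 CPM in normoxia (log2 fold change 1.95, SE 0.56, adjusted p = 0.0288). Its adjusted p reached 0.081 when single libraries were left out. ADM, the vasodilator adrenomedullin, had 214.3, 218.9 and 213.6 CPM in hypoxia and 36.23, 312.4 and 42.28 CPM in normoxia (log2 fold change 0.73, SE 0.77, adjusted p = 0.475). For ADM replicate 2 lay above hypoxia and the other normoxia libraries far below it.

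VEGFA, the main angiogenic HIF target, showed the opposite order of normoxia libraries. VEGFA had 1460, 1517 and 1407 CPM in hypoxia and 1566, 795 and 1708 CPM in normoxia (log2 fold change 0.11, SE 0.27, adjusted p = 0.765). Against replicate 2 alone the difference was 0.88, and without replicate 2 it was −0.16 (adjusted p = 0.0304). The direction for VEGFA therefore turned with the normoxia library taken.

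Among the oxygen-sensing genes themselves, 6 of 15 rose and 3 fell, with 5 and 2 of these calls kept in all 7 fits. HIF1A had 959.3, 930.9 and 1029 CPM in hypoxia, against 3943, 2162 and 4690 CPM in normoxia (log2 fold change −1.89, SE 0.27, adjusted p = 0.00244). All normoxia libraries were at least 2 times above the highest hypoxia library. ARNT, the partner subunit, fell by 0.64 on the log2 scale (SE 0.12, adjusted p = 0.00635), while EPAS1, which encodes HIF-2alpha, had 119.2, 127.8 and 116.1 CPM in hypoxia and 88.96, 146.9 and 91.15 CPM in normoxia and did not pass (adjusted p = 0.566). The hydroxylase EGLN1 rose by 0.99 (SE 0.15), the coactivator EP300 by 1.17 (SE 0.18) and VHL by 0.53 (SE 0.10). HIF1AN, the asparaginyl hydroxylase of HIF, did not pass (0.19, SE 0.10, adjusted p = 0.181).

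Glycolysis and lactate export rose from glucose entry to lactate exit. Of 24 genes tested, 18 rose and 2 fell, 11 and 2 of them in all 7 fits, with a median of 0.88. SLC2A1, the glucose transporter GLUT1, had 3114, 3054 and 2969 CPM in hypoxia, against 491.1, 910.1 and 462.8 CPM in normoxia (log2 fold change 2.29, SE 0.27, adjusted p = 0.00127). PFKFB4, which makes the activator of phosphofructokinase, had 334.7, 340.7 and 330.3 CPM in hypoxia and 70.43, 87.11 and 63.6 CPM in normoxia (log2 fold change 2.19, SE 0.14, adjusted p = 0.000352). SLC16A3, the lactate exporter MCT4, had 880.6, 935.7 and 836 CPM in hypoxia and 284.9, 313.5 and 238.7 CPM in normoxia (log2 fold change 1.66, SE 0.13, adjusted p = 0.000445). In each of these genes all hypoxia libraries stood more than 2-fold above the highest normoxia library.

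Other steps of the pathway followed with smaller changes. PGK1 rose by 1.68, TPI1 by 1.13, PGAM1 by 1.10, ENO1 by 0.81 and LDHA by 0.81, each in all 7 fits. The fallen pair was LDHB (−0.89), the lactate dehydrogenase subunit that favours pyruvate, and PFKM (−0.67), the muscle phosphofructokinase, beside rises of its liver and platelet counterparts PFKL (1.24) and PFKP (0.61). GAPDH had 3613, 3568 and 3479 CPM in hypoxia and 1462, 2820 and 1516 CPM in normoxia (log2 fold change 0.88, SE 0.26, adjusted p = 0.0307). Its adjusted p reached 0.0976 when single libraries were left out. The transporter SLC2A3 had 195.8, 189.6 and 192 CPM in hypoxia and 87.05, 328.1 and 97.31 CPM in normoxia and did not pass (adjusted p = 0.791). In glycogen metabolism 3 of 12 rose and 2 fell, shares near those of all genes (20.5% and 22.6%), and 2 rises and no fall were kept in all 7 fits. The rises included GYS1, glycogen synthase (1.64, SE 0.13), and PPP1R3G, a glycogen-targeting phosphatase subunit (2.33, SE 0.22).

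Genes of pyruvate entry and the TCA cycle fell more often than they rose. The list holds kinases that block pyruvate entry beside the enzymes, so its counts give no direction of pyruvate entry itself. Of 31 genes tested, 16 fell and 1 rose, with 7 falls and the rise kept in all 7 fits, and the median was −0.36. PDK4, a pyruvate dehydrogenase kinase that blocks pyruvate entry when fatty acids are burned, had 0.7461, 1.868 and 1.75 CPM in hypoxia, against 122.1, 58.09 and 91.89 CPM in normoxia (log2 fold change −5.95, SE 0.42, adjusted p = 0.000359). PC, pyruvate carboxylase, had 22.33, 23.25 and 23.25 CPM in hypoxia and 194.1, 46.61 and 182.2 CPM in normoxia (log2 fold change −2.62, SE 0.49, adjusted p = 0.00588). For PC, replicate 2 lay between hypoxia and the other normoxia libraries. PDP2, a phosphatase that reactivates pyruvate dehydrogenase, fell by 2.00 on the log2 scale (SE 0.24), SDHA, the flavoprotein of complex II, by 1.05 (SE 0.09), and CS, citrate synthase, by 0.72 (SE 0.10). The single riser was PDK2 (0.67), and PDK1, the kinase usually named as the HIF target, had 102.6, 102.7 and 105 CPM in hypoxia and 48.67, 97.2 and 53.99 CPM in normoxia (log2 fold change 0.64, SE 0.25, adjusted p = 0.078).

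Transcripts of the mitochondrial genome fell. Of 13 mitochondrially encoded mRNAs, 10 fell, 9 of them in all 7 fits, and none rose, with a median of −1.44. MT-CO1, a core subunit of complex IV, had 781.5, 849.2 and 782.6 CPM in hypoxia, against 2178, 2273 and 2081 CPM in normoxia (log2 fold change −1.44, SE 0.11, adjusted p = 0.000399). MT-CO2, also of complex IV, fell by 1.83 (SE 0.14), MT-ND4L and MT-ND5 of complex I by 1.74 (SE 0.12) and 1.44 (SE 0.11), and MT-ND6, which lies on the other strand, by 1.28 (SE 0.12). MT-CYB, of complex III, had 125.3, 132.6 and 124 CPM in hypoxia and 166.6, 120.7 and 101.3 CPM in normoxia and did not pass (adjusted p = 0.92). In this set replicate 2 did not stand apart, and the medians against the 3 normoxia libraries were −1.55, −1.43 and −1.09. The handling of reads shared with nuclear copies of the mitochondrial genome is not stated.

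Nuclear genes of the respiratory chain moved less. Of 48 tested, 21 fell and 4 rose, 15 falls and no rise being kept in all 7 fits, with a median of −0.27. ATP5F1A, the alpha subunit of ATP synthase, had 110.3, 106.5 and 111.6 CPM in hypoxia and 206.2, 222.9 and 216.2 CPM in normoxia (log2 fold change −0.97, SE 0.09, adjusted p = 0.000592). UQCRB of complex III fell by 1.03 (SE 0.10) and ATP5F1E of ATP synthase by 0.90 (SE 0.09). With replicate 2 as the only normoxia library, 34 of the 48 fell and 4 rose. Of 25 genes of the mitochondrial ribosome and translation, 9 fell and 5 rose, 3 and 2 in all 7 fits.

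DNA replication genes rose, and here all 3 normoxia libraries gave the same picture. Of 34 genes tested, 29 rose and 1 fell, 24 of the rises being kept in all 7 fits, against 20.5% called higher among all genes. The median was 1.20, and against normoxia replicates 1, 2 and 3 it was 1.13, 1.32 and 1.06. PCNA, the sliding clamp of DNA polymerases, had 152.1, 142.1 and 146 CPM in hypoxia, against 50.16, 53.81 and 53.19 CPM in normoxia (log2 fold change 1.49, SE 0.09, adjusted p = 0.000352). ORC6, of the origin recognition complex, had 34.32, 34.57 and 34.51 CPM in hypoxia and 12.08, 11.1 and 11.96 CPM in normoxia (log2 fold change 1.56, SE 0.11, adjusted p = 0.000365). TK1, the S-phase thymidine kinase, rose by 1.75 (SE 0.13), the helicase loaders CDC6 and CDT1 by 1.82 (SE 0.24) and 1.51 (SE 0.20), and MCM10 by 1.98 (SE 0.24). MCM3 had 89.74, 88.54 and 95.91 CPM in hypoxia and 78.98, 40.56 and 80.12 CPM in normoxia and did not pass (adjusted p = 0.17). RFC1, of the clamp loader, was the one member called lower (−1.16), and this call was kept in only 1 of the 7 fits. In these bulk libraries, a changed share of cells of a kind or phase and a changed RNA level per cell cannot be told apart.

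Mitotic genes did not move as one. Of 30 tested, 10 rose and 4 fell, and 3 rises and 1 fall were kept in all 7 fits. MKI67, the proliferation marker Ki-67, had 48.65, 44.79 and 47.08 CPM in hypoxia, against 8.788, 16.15 and 10.91 CPM in normoxia (log2 fold change 1.97, SE 0.22, adjusted p = 0.00111). KIF11, a spindle motor, and NDC80, of the kinetochore, rose by 1.36 (SE 0.19) and 1.31 (SE 0.25). PTTG1, securin, had 41.57, 34.15 and 42.01 CPM in hypoxia and 74.01, 86.23 and 86.59 CPM in normoxia (log2 fold change −1.07, SE 0.12, adjusted p = 0.00124). The list's median was 0.35, but 0.59 and 0.47 against replicates 1 and 3 and −0.07 against replicate 2. With replicate 2 alone, 8 rose and 8 fell, and without it 18 rose and 6 fell. Among cell-cycle inhibitors and p53 targets, 4 of 22 rose and 7 fell, against 20.5% and 22.6% of all genes, while 9 rose and 8 fell without replicate 2 and 4 rose and 13 fell with it alone. Called members included XPC, a DNA damage sensor, at 1.61 (SE 0.20) and CCNG1, a p53-induced cyclin, at −0.95 (SE 0.17).

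ATF4 and its targets split. Of 25 genes of the integrated stress response, 11 rose and 5 fell, 8 and 2 in all 7 fits. TRIB3, a pseudokinase that restrains ATF4, had 417.8, 450.4 and 396 CPM in hypoxia, against 145, 140.3 and 127.4 CPM in normoxia (log2 fold change 1.61, SE 0.11, adjusted p = 0.000352). CHAC1, which degrades glutathione, had 131.5, 125 and 143.3 CPM in hypoxia and 15.07, 3.785 and 9.491 CPM in normoxia (log2 fold change 3.81, SE 0.43, adjusted p = 0.00115). Its normoxia libraries spanned nearly 4-fold, all far below hypoxia. The factor ATF5 rose by 1.70 (SE 0.18) and the amino acid transporter SLC7A5 by 1.41. GDF15, a stress-induced hormone (−2.54), and NUPR1, a stress-induced nuclear protein (−1.53), fell in all 7 fits. PHGDH, of serine synthesis, had 410.3, 409.1 and 417.9 CPM in hypoxia and 299.2, 418 and 294.3 CPM in normoxia (adjusted p = 0.162, and 3.64e-06 without replicate 2). Of 22 ER chaperone and unfolded protein response genes, 4 rose and 1 fell, against 20.5% and 22.6% of all genes. Without replicate 2, 11 rose and 2 fell, and with it as the only normoxia library 4 rose and 8 fell. HSPA5, the chaperone BiP, had 852.9, 834.9 and 818.8 CPM in hypoxia and 713.7, 1250 and 808.6 CPM in normoxia (adjusted p = 0.599).

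Of the 16 iron and haem genes, 3 rose and 4 fell, shares near those of all genes (20.5% and 22.6%). HMOX1, which degrades haem to iron, carbon monoxide and biliverdin, had 615.7, 660.1 and 427.5 CPM in hypoxia, against 59.79, 43.97 and 25.82 CPM in normoxia (log2 fold change 3.72, SE 0.34, adjusted p = 0.000592). FTH1, the ferritin heavy chain, had 2175, 2321 and 1752 CPM in hypoxia and 5542, 5727 and 5186 CPM in normoxia (log2 fold change −1.40, SE 0.15, adjusted p = 0.000907). FTL, the light chain, had 2129, 2167 and 1852 CPM in hypoxia and 1934, 3832 and 1713 CPM in normoxia and did not pass (adjusted p = 0.475).

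Enzymes that mature collagen rose. Of 18 collagen hydroxylases, chaperones and cross-linkers, 10 rose and 3 fell, 7 and 1 in all 7 fits, with a median of 0.86. PLOD2, the lysyl hydroxylase of cross-linking sites, had 795.8, 759.2 and 811.6 CPM in hypoxia, against 295.6, 330.4 and 290 CPM in normoxia (log2 fold change 1.37, SE 0.10, adjusted p = 0.000405). LOX, lysyl oxidase, had 976.6, 1057 and 877.3 CPM in hypoxia and 175.4, 357.7 and 162 CPM in normoxia (log2 fold change 2.07, SE 0.31, adjusted p = 0.00271). The prolyl hydroxylase subunit P4HA2 rose by 2.00 (SE 0.36), the collagen chaperone SERPINH1 by 1.82 and LOXL2 by 0.90 (SE 0.11), while P3H2, a prolyl 3-hydroxylase, fell by 0.96 (SE 0.13).

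Counts of matrix and adhesion genes depended on the normoxia library. Of 29 matrix and adhesion genes, 10 fell and 4 rose, 6 and 1 in all 7 fits, against 22.6% and 20.5% of all genes. Without replicate 2, 12 fell and 12 rose, and with it as the only normoxia library 19 fell and 6 rose. TNC, tenascin C, had 258.6, 273.4 and 279.6 CPM in hypoxia, against 1030, 673.9 and 1035 CPM in normoxia (log2 fold change −1.75, SE 0.18, adjusted p = 0.000872). FN1, fibronectin, had 20800, 21370 and 20180 CPM in hypoxia and 21010, 29270 and 21340 CPM in normoxia and did not pass (adjusted p = 0.394). Of 19 transition factors and cadherins, 8 fell and 2 rose, 6 and 2 in all 7 fits, while 8 fell and 5 rose without replicate 2 and 13 fell and 2 rose with it alone. SNAI2, the repressor Slug, had 44.44, 48.37 and 40.03 CPM in hypoxia and 314.9, 224.2 and 408.9 CPM in normoxia (log2 fold change −2.84, SE 0.23, adjusted p = 0.000445). SNAI1, the repressor Snail, fell by 1.57 (SE 0.14), and the collagenase MMP1 by 1.09 (SE 0.17), while the gelatinases MMP2 and MMP9 rose by 1.91 and 1.10. SNAI1 and SNAI2 were thus lower in every hypoxia library than in any normoxia library.

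Angiogenic genes went both ways. Of 20 tested, 8 rose and 6 fell, 6 and 3 in all 7 fits, and the fitted median was −0.06, while the medians against the single normoxia libraries were above 0. APLN, the peptide ligand apelin, had 6.608, 9.342 and 7.629 CPM in hypoxia, against 0.1196, 0.3154 and 0.4314 CPM in normoxia (log2 fold change 4.74, SE 0.39, adjusted p = 0.000458). TEK, the angiopoietin receptor TIE2, had 160 counts over the 3 hypoxia libraries and 0 over the 3 normoxia libraries, so it was at least 43.2-fold higher, taking 3 counts over the normoxia group as the floor. PDGFB, a growth factor for mural cells, rose by 1.78, EDN1, endothelin 1, by 1.12 (SE 0.16) and PGF, placental growth factor, by 0.75 (SE 0.09). FGF2 fell by 1.95 and the ephrin EFNA1 by 1.42. CDH5, VWF and ERG, defining genes of endothelial cells, were too low to be tested. Of the 9 endothelial markers, 5 were tested, with 1 called higher (TEK) and 3 lower (PECAM1, ESAM and KDR). None of these 3 falls was kept in all 7 fits.

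Cytokine genes divided by direction. Of 24 NF-kB cytokines and targets, 7 rose and 10 fell, 6 and 7 in all 7 fits. ICAM1, a leukocyte adhesion receptor, had 529.1, 530.3 and 418.6 CPM in hypoxia, against 145, 159.9 and 122.3 CPM in normoxia (log2 fold change 1.79, SE 0.15, adjusted p = 0.000471). CSF2, the growth factor GM-CSF, rose by 1.52 (SE 0.14), and the chemokine CCL20 by 1.97. Beside IL24, the interleukins IL1A (−2.11), IL1B (−1.72), IL11 (−1.56, SE 0.16) and IL6 (−1.53) and the chemokine CXCL8 (−1.96) fell in all 7 fits. PTGS2, the inducible cyclooxygenase, had 7.94, 6.955 and 7.046 CPM in hypoxia and 341.2, 2.712 and 363.3 CPM in normoxia. PTGS2 was called lower (log2 fold change −5.01, SE 1.38, adjusted p = 0.0242), although replicate 2 lay below every hypoxia library. Against replicate 2 alone the difference was 1.39, so the direction for PTGS2 turned with the normoxia library taken. Its adjusted p reached 0.0918 when single libraries were left out, and the fall was kept in only 1 of the 7 fits.

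Interferon response genes fell. Of 28 tested, 14 fell and 2 rose, 11 and 1 in all 7 fits, with a median of −0.71, and −0.61, −0.56 and −0.60 against the 3 normoxia libraries. IFIH1, the RNA sensor MDA5, had 10.02, 9.861 and 10.82 CPM in hypoxia, against 24.87, 23.53 and 21.2 CPM in normoxia (log2 fold change −1.18, SE 0.13, adjusted p = 0.00102). MX1, an antiviral GTPase, fell by 2.89 and OAS2 by 1.41 (SE 0.22). ISG20, an exonuclease, rose by 1.11 (SE 0.18), and IFI27, with 416.6, 432.7 and 283 CPM in hypoxia and 538.8, 560.5 and 374 CPM in normoxia, did not pass (adjusted p = 0.191).

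Growth-control transcription factors and feedback genes of the MAPK pathway split as well. Of 23 AP-1 and immediate early genes, 6 rose, all of them in all 7 fits, and 7 fell, 4 of them in all 7 fits. MYC, the growth-promoting factor, had 243.2, 241.7 and 269.1 CPM in hypoxia, against 33.42, 78.09 and 40.68 CPM in normoxia (log2 fold change 2.31, SE 0.31, adjusted p = 0.00185). JUN rose by 1.41 (SE 0.21) and KLF2 by 1.80 (SE 0.15). IER3, an early stress gene, had 246, 265.9 and 227.7 CPM in hypoxia and 3094, 1694 and 3541 CPM in normoxia (log2 fold change −3.49, SE 0.28, adjusted p = 0.000455). The ERK feedback inhibitors SPRY2 (−2.17, SE 0.18) and DUSP4 (−1.46, SE 0.13) fell, whereas SPRY1 (2.04) and DUSP6 (1.48) rose. DUSP1 had 2303, 2218 and 2608 CPM in hypoxia and 1723, 4799 and 1859 CPM in normoxia and did not pass (adjusted p = 0.65).

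Genes of cholesterol synthesis and uptake fell more often than they rose. Of 23 tested, 12 fell and 4 rose, 8 and 2 in all 7 fits, with a median of −0.54. MSMO1, a sterol demethylating oxidase that uses oxygen, had 11.72, 12.72 and 12.57 CPM in hypoxia, against 29.95, 34.25 and 29.27 CPM in normoxia (log2 fold change −1.34, SE 0.12, adjusted p = 0.000645). The regulator SREBF2 fell by 1.35 (SE 0.21) and DHCR7, of the final reduction, by 1.19 (SE 0.16). Histone demethylases, which also use oxygen, rose in 9 and fell in 3 of 21, with KDM3A and KDM4B at 1.00 (SE 0.11) and 1.21 (SE 0.17) and KDM7A at −1.57 (SE 0.16). Clock genes fell in 7 and rose in 2 of 17, among them PER1 (−1.38) and NFIL3 (−1.21, SE 0.16).

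**Figure D4:**
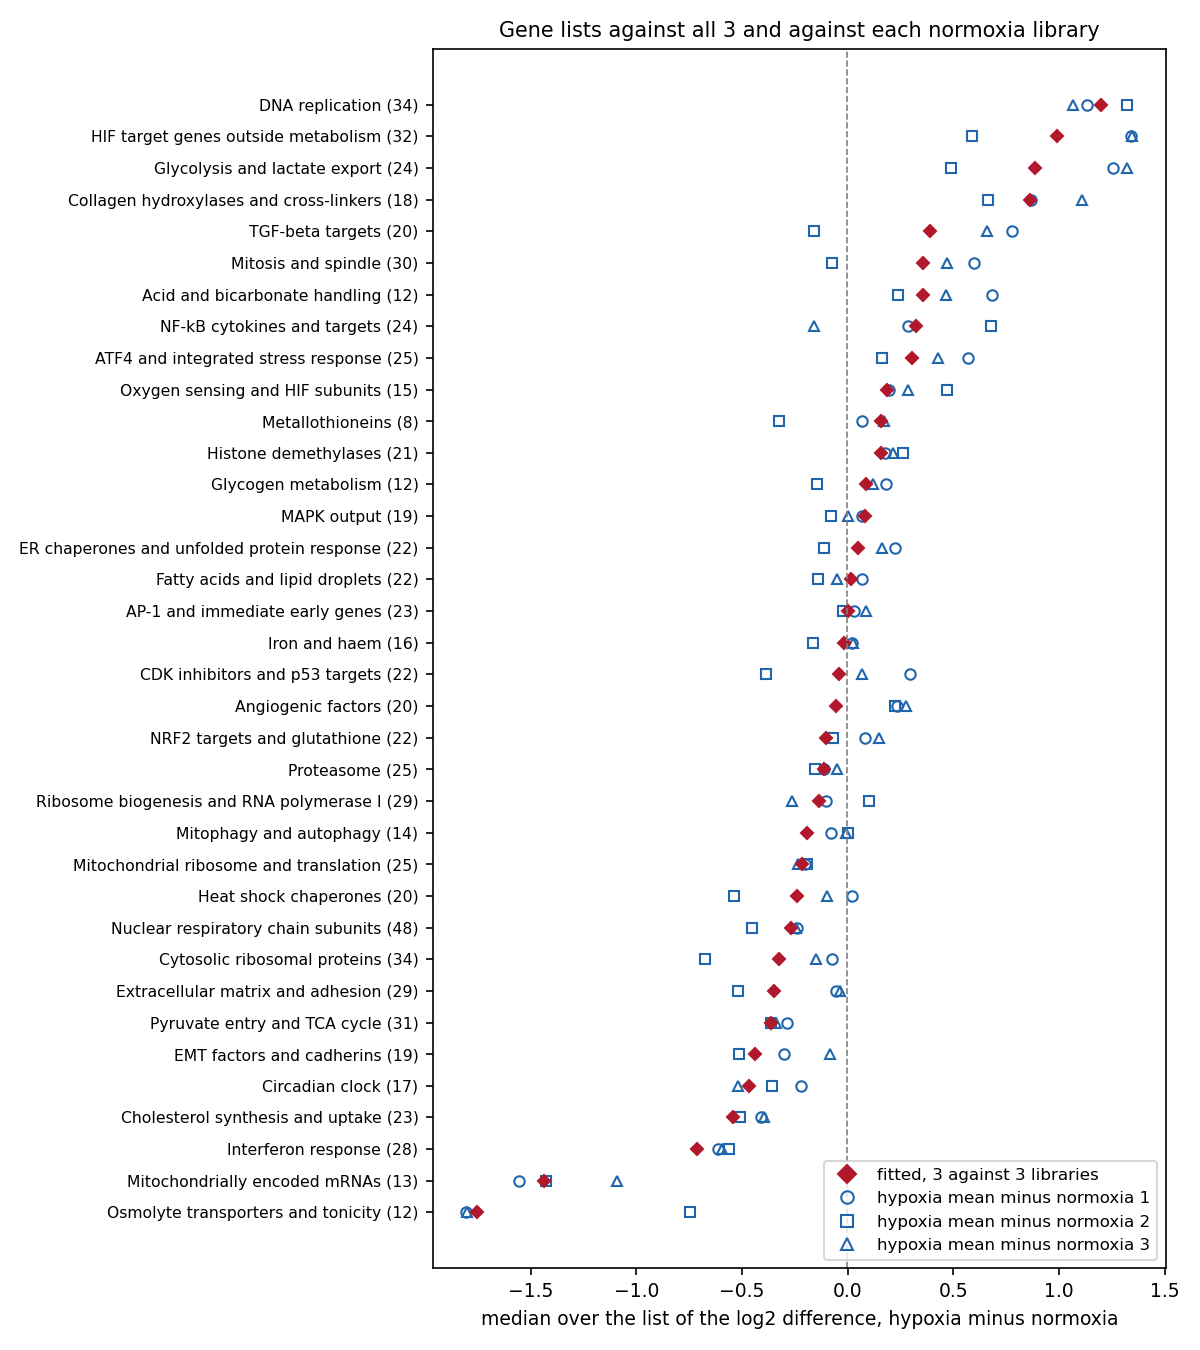
Median log2 difference, hypoxia minus normoxia, of each gene list (genes tested in brackets), as fitted from 3 against 3 libraries (diamonds) and against each normoxia library (open symbols); the dashed line is the median of all genes. The symbols lie close together for interferon response and mitochondrial ribosome genes, and normoxia replicate 2 stands apart for HIF targets, glycolysis, TGF-beta targets and osmolyte transporters.

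Some of the largest falls rested on unlike normoxia libraries. Osmolyte transporters and tonicity genes fell in 7 and rose in 1 of 12, 6 and 1 in all 7 fits, with a median of −1.76, and −1.80, −0.74 and −1.80 against the 3 normoxia libraries. SLC5A3, which imports the osmolyte inositol, had 82.55, 84.86 and 110.4 CPM in hypoxia, against 5170, 636.2 and 5352 CPM in normoxia (log2 fold change −5.33, SE 0.79, adjusted p = 0.00264). AKR1B1, which makes the osmolyte sorbitol, had 265.2, 293.6 and 272.1 CPM in hypoxia and 4282, 543.6 and 3799 CPM in normoxia (log2 fold change −3.38, SE 0.69, adjusted p = 0.00797). SLC38A2, an amino acid transporter, had 526.3, 527.1 and 594 CPM in hypoxia and 3344, 913.3 and 3916 CPM in normoxia (log2 fold change −2.31, SE 0.48, adjusted p = 0.00904). In these genes replicate 2 lay between the hypoxia libraries and the other normoxia libraries.

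The same order held for AKR1C2, GUCY1A2, PTGER3 and CDH16. AKR1C2, a hydroxysteroid dehydrogenase with close copies whose reads may be shared, had 1.439, 0.9861 and 0.6732 CPM in hypoxia and 581.7, 3.532 and 514.3 CPM in normoxia (log2 fold change −8.48, SE 1.75, adjusted p = 0.00855). CDH16, a cadherin of thyroid and kidney epithelium, had 1.439, 1.142 and 0.6732 CPM in hypoxia and 158.3, 4.542 and 133.4 CPM in normoxia (log2 fold change −6.52, SE 1.27, adjusted p = 0.00693). With limma-voom, AKR1C2 (−6.69, adjusted p = 0.229), CDH16 (−5.47, adjusted p = 0.123) and GUCY1A2 (−5.31, adjusted p = 0.0576) did not pass. The thyroid factor PAX8 had 420.3, 446.4 and 455.6 CPM in hypoxia and 1757, 543.8 and 1659 CPM in normoxia (log2 fold change −1.58, SE 0.40, adjusted p = 0.0179), and its adjusted p reached 0.0711 when single libraries were left out. The thyroid factor FOXE1 rose by 1.46 (SE 0.19, adjusted p = 0.00165) in all 7 fits. SLCO4A1, an organic anion transporter, had 749.4, 798.6 and 758.1 CPM in hypoxia and 3460, 823.4 and 3012 CPM in normoxia (log2 fold change −1.66, SE 0.47, adjusted p = 0.0262), with adjusted p from 0.0793 to 0.0901 in the 5 fits that kept replicate 2 and left out another library.

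Rises with a wide normoxia spread were named too. PIK3IP1, an inhibitor of PI3 kinase, had 21.85, 25.95 and 20.24 CPM in hypoxia, against 0.7174, 1.955 and 0.6163 CPM in normoxia (log2 fold change 4.37, SE 0.40, adjusted p = 0.000592). CDC25A, a phosphatase that starts S phase, had 42.63, 47.12 and 44.12 CPM in hypoxia and 4.125, 7.696 and 2.835 CPM in normoxia (log2 fold change 3.19, SE 0.34, adjusted p = 0.000908). TCAF2, a regulator of the channel TRPM8, rose by 3.46 (SE 0.38, adjusted p = 0.00101). Here the spread among the normoxia libraries was small beside the distance to hypoxia.

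**Figure D5:**
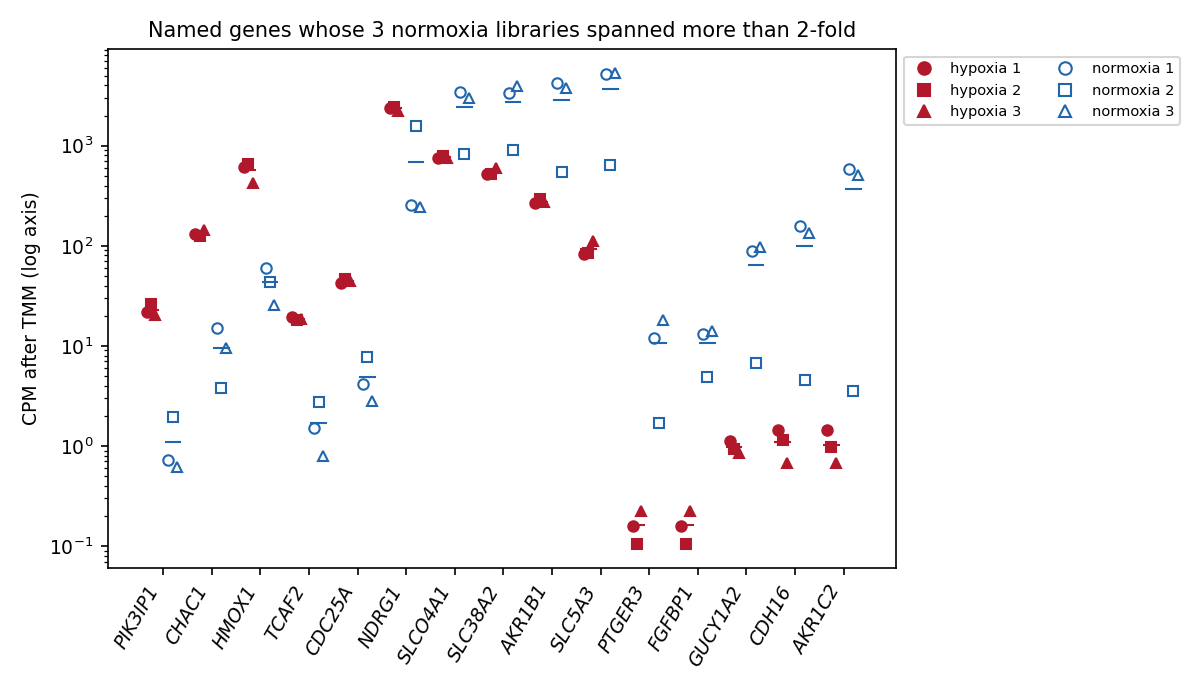
CPM after TMM (log axis) in each siControl library, hypoxia filled and left, normoxia open and right, with a bar at each mean, for named genes whose normoxia libraries spanned more than 2-fold. Normoxia replicate 2 (open squares) lies between hypoxia and the other normoxia libraries in NDRG1, SLC5A3, SLC38A2, AKR1B1, AKR1C2, CDH16, GUCY1A2, PTGER3 and FGFBP1.

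In 84 genes all 3 hypoxia libraries lay inside the normoxia range, and their mean was more than 2-fold from a normoxia library on both sides. No single direction described these genes. ADAMTS1, a matrix protease, had 308.5, 308.3 and 324.3 CPM in hypoxia, against 122, 872.4 and 131.5 CPM in normoxia. HSPA1A, an inducible heat shock protein with the near-identical copy HSPA1B, had 77.06, 80.03 and 70.95 CPM in hypoxia and 42.63, 613.6 and 36.18 CPM in normoxia. HES4, a Notch target, had 37.57, 35.03 and 40.3 CPM in hypoxia and 12.61, 95.94 and 14.61 CPM in normoxia. None of these 3 genes, which were chosen after their values were seen, passed the test. Cytosolic ribosomal protein genes showed a milder form of the same dependence: 10 of 34 were lower and none higher, 1 in all 7 fits, while all 34 were lower against replicate 2 alone and 16 were lower and 7 higher without it.

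The siNOX4 cells gave a second measurement of hypoxia with no library in common. There 11403 of 16294 genes (70.0%) were called, 5815 higher (35.7%) and 5588 lower (34.3%), with a coefficient of variation of 7.88% against 21.5% in the siControl fit. Of 3263 genes called higher in siControl cells and tested in both, 2962 were also called higher in siNOX4 cells and 2 lower. Of 3602 called lower, 3128 were called lower and 20 higher. Among genes called lower in siControl cells, 89.6% of those with a normoxia range of at most 2-fold and 73% of those with a wider range were called lower in siNOX4 cells. Among genes called higher the shares were 90% and 93.9%, so a wider range did not go with a lower share there. These shares were not tested.

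Single genes differed in how close the values of the cell groups lay. KCTD11 changed by 4.62 in siControl cells and 4.70 in siNOX4 cells, IL24 by −6.46 and −6.14, and PPARG, the adipogenic nuclear receptor, by −2.84 and −2.82. Cytosolic ribosomal proteins, none of which had a normoxia range above 2-fold, had a median of −0.32 in siControl and −0.77 in siNOX4 cells. Their siControl medians against normoxia replicates 1, 2 and 3 were −0.08, −0.67 and −0.15. Nuclear respiratory chain subunits had medians of −0.27 and −0.63 in the 2 cell groups, with −0.24, −0.45 and −0.24 against the single siControl replicates. HIF targets outside metabolism had 0.99 and 0.63, with 1.34, 0.59 and 1.35 against the single replicates. Among single genes in which replicate 2 stood apart, SLC5A3 changed by −5.33 in siControl and −2.63 in siNOX4 cells. NDRG1 changed by 1.78 and 0.84, VEGFA by 0.11 and 1.06, and PTGS2 by −5.01 and 0.97. These siControl values depended on the normoxia library: for PTGS2 they were −5.53, 1.39 and −5.62 against replicates 1, 2 and 3. For NDRG1 and VEGFA the values against replicate 2 alone are given above. The part of replicate 2 in the gaps between the cell groups was not tested. The difference between the cell groups did not pass for any of these 4 genes, for instance (SLC5A3 −2.69, SE 0.73, adjusted p = 0.204; VEGFA −0.94, SE 0.30, adjusted p = 0.204; NDRG1 0.95, SE 0.74, adjusted p = 0.434). Over all 17277 genes of the 12-library fit, edgeR called 0 differences (0.00%, smallest adjusted p 0.159), with 3609 at an unadjusted p under 0.05, and DESeq2 called 75. Without siControl normoxia replicate 2, edgeR called 7696, and with it as the only siControl normoxia library 2.

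In the table that the authors deposited, an adjusted p was given for 30743 genes, and 7490 of them had an adjusted p under 0.05, 3438 higher and 4052 lower in hypoxia, where the log2 values of the authors' deposited table run as normoxia over hypoxia. Among the genes tested here, 6656 were called both here and in the authors' deposited table with the same direction and 0 with the opposite one.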

How the data were processed

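RNA sequencing of 12 libraries in 4 groups was deposited as 1 table of 58735 genes, of which the siControl libraries gave counts for 34455. The deposited values are whole-number read counts per gene, with FPKM values computed by the authors. The authors' comparison columns hold group means on a normalised signal scale, log2 fold changes and p-values with adjusted p-values, per the file headers. Group means of the authors' other comparisons, 6 columns, were not used here. Gene IDs and positions matched GENCODE 29 on GRCh38. Per the submitters' processing notes, Bowtie 0.12.2 and the mouse builds mm8 and mm9 are named, with no role stated. The aligner and counter of this human table and the handling of reads shared between copies or strands are not stated.

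From the counts, edgeR 4.0.16 in R 4.3.3 (limma 3.58.1, DESeq2 1.42.0 for alternatives) was run on the 6 siControl libraries alone with TMM factors, its expression filter by group and the quasi-likelihood F test. Calls needed a Benjamini-Hochberg adjusted p under 0.05. Log2 CPM used a prior count of 2. The siNOX4 libraries were fitted separately, and the difference between the cell groups in 1 fit of all 12 libraries. The procedure was also run on simulated counts with the same spread in both groups and no library standing apart. That setting does not cover the unequal spread of these groups. With 3 against 3 libraries an exact permutation test of 1 gene cannot give a p below 0.1. Counting intervals cover counting error only.

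The gene lists and members were chosen with earlier results of these data known. By rule, the text names the 12 strongest rises and 12 strongest falls of called protein-coding genes with at least 10 CPM in the higher group, no overlap and a normoxia log2 range of at most 1. To these were added the 5 largest each way with a wider range, 5 highly expressed genes with a normoxia log2 range above 2, and from each list up to 4 called members by smallest p with the most abundant uncalled one, not all of which are printed. Other named genes were chosen after their values were seen. Not every gene chosen this way is reported.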

Additional observations from a re-analysis of the deposited data

How the results depend on the processing

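No gene called in the siControl comparison was called in the opposite direction under any other normalisation, filter, test or single-library omission, and 9 were with replicate 2 as the only normoxia library, an alternative chosen after seeing the data. Counts of calls stayed within 1.5 times of 6981 under DESeq2 size factors (6976), upper-quartile scaling (6954), no filter (7311), a filter of 5 CPM in 3 libraries (5510), DESeq2 (7609), limma-voom (7005, and 5955 with a weight per group) and 1 fit of all 12 libraries (9204). Testing against a 2-fold minimum left 858 genes, 352 higher and 506 lower, and all 858 without overlap. Leaving out single libraries gave 3744 to 11290 calls, 1742 to 5601 higher, 1999 to 5689 lower and 3744 to 11193 without overlap. With replicate 2 as the only normoxia library 10493 were called, 5201 of them higher, 10493 without overlap. Differences between the cell groups, 0 in the fit of all libraries, numbered 2107 without a filter, 75 with DESeq2, 0 to 7696 without single libraries and 2 with replicate 2 as the only siControl normoxia library. The causes were not tested.

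Some genes that were not called changed sign and passed without replicate 2. Over all single-library omissions their log2 fold changes ranged from −0.23 to 0.29 (GADD45A), −0.49 to 0.42 (DUSP1), −0.25 to 0.34 (CRTAP), −0.16 to 0.30 (VEGFA), −0.50 to 0.18 (FTL), −0.35 to 0.25 (TKT) and −2.20 to 0.72 (HSPA1B). With replicate 2 as the only normoxia library the same held for BSG (−0.18), PNPLA2 (−0.17), SLC4A2 (0.63), MT2A (−0.33), BHLHE40 (−0.36), KRT7 (−0.39), TIE1 (−0.37) and CD14 (1.78). Deviations of same-numbered hypoxia and normoxia libraries correlated at −0.02, −0.005 and 0.064. With 3 libraries per group and replicate 2 standing apart, these values cannot decide whether same-numbered libraries were paired. With the replicate block 5697 genes were called, 5631 of them without overlap, and 0 differences between the cell groups.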

Other observations

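Of 1127 transcription factor genes tested, 205 were called higher and 259 lower, against 20.5% and 22.6% of all genes. Those of the thyroid hormone receptor-like family, which holds only a part of the nuclear receptors, numbered 17, with 1 higher and 7 lower. Their median log2 fold change was −0.85, the lowest of the larger families. The medians of the others ran from −0.31 (ETS) to 0.29 (Homeobox). Genes named in this section were chosen after their values were seen. PPARG, the adipogenic nuclear receptor, had 3.517, 3.737 and 4.937 CPM in hypoxia, against 28.58, 26.43 and 32.42 CPM in normoxia (log2 fold change −2.84, SE 0.18, adjusted p = 0.000352). RARG, a retinoic acid receptor, had 33.57, 37.83 and 38.06 CPM in hypoxia and 156, 124.3 and 140.7 CPM in normoxia (log2 fold change −1.94, SE 0.12, adjusted p = 0.000352). POU2F2, a factor best known from B cells, had 63.2, 69.23 and 53.81 CPM in hypoxia and 14.11, 15.45 and 13.37 CPM in normoxia (log2 fold change 2.12, SE 0.14, adjusted p = 0.000352). In all of these the normoxia libraries lay close together, replicate 2 included.

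Among long intergenic noncoding RNAs, 154 of 695 were called higher and 123 lower, 39.9% in either direction, against 43.1% of all genes tested. MIR503HG, a host transcript of microRNAs, had 33.41, 33.58 and 37.16 CPM in hypoxia, against 2.332, 1.514 and 1.541 CPM in normoxia (log2 fold change 4.27, SE 0.20, adjusted p = 0.000185). MIR210HG, the host of the hypoxia-induced miR-210, had 35.01, 38.67 and 40.53 CPM in hypoxia and 10.88, 14 and 8.32 CPM in normoxia (log2 fold change 1.78, SE 0.20, adjusted p = 0.00108). LUCAT1, a stress-associated noncoding RNA, had 144.6, 141.8 and 134.4 CPM in hypoxia and 17.4, 28.64 and 15.1 CPM in normoxia (log2 fold change 2.78, SE 0.24, adjusted p = 0.000492). AL161431.1 went the other way, with 116.5, 123.7 and 165.8 CPM in hypoxia and 643.2, 896.8 and 681.6 CPM in normoxia (log2 fold change −2.45, SE 0.20, adjusted p = 0.000445). Host transcripts show nothing of the mature microRNAs, which this assay does not count.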
